A study of Mus musculus with 9 samples.

Results

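The genes described here encode 10 enzymes and core partners that place, copy, remove or read out 2 repressive marks of chromatin, DNA methylation and the Polycomb mark on histone H3: Dnmt1, Uhrf1, Dnmt3a, Dnmt3b, Tet1, Tet2, Tet3, Ezh2, Suz12 and Eed. They were taken by symbol from the deposited table of 23946 genes, and all 10 were found there. Gene positions below are those of that table, counted from 1, and lie on mm9 as far as can be inferred, since its starts do not match GRCm38. Uhrf1 was 5.76-fold, Ezh2 3.43-fold and Dnmt1 1.83-fold lower in DKO than in WT CD8 T cells, while the low-level genes Tet1 and Tet3 were 1.77-fold and 1.61-fold lower and Dnmt3b 1.49-fold higher. The calls of these last 3 genes were lost with a GC covariate (adjusted p = 0.191, 0.238 and 0.114) and without some single libraries, and those of Uhrf1, Ezh2 and Dnmt1 were not. Ezh2 alone of the 10 was called lower in the libraries labelled CTCF KO, by 1.68-fold. Sex-linked RNA also set that group apart from WT and DKO. No DNA methylation or histone mark was measured in the data used here, so every value is an RNA level.

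Methyl groups on cytosine are lost from the new strand each time DNA is copied, and DNMT1 restores them after UHRF1 has recognised the hemimethylated site. DNMT3A and DNMT3B methylate unmarked sites, and the TET dioxygenases oxidise the methyl group, which opens a way to its removal. Polycomb repressive complex 2 (PRC2) methylates lysine 27 of histone H3 through its catalytic subunit EZH2, which is active only together with SUZ12 and EED. In CD8 T cells these enzymes are known for their roles in silencing naive-cell genes in effector cells and in setting the fate of memory and exhausted cells.

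RNA was sequenced from 3 libraries in each of 3 groups of mouse CD8 T cells: wild type (WT), Ctcf-floxed (genotype label CTCF-/-, called CTCF KO), and double-floxed for Lef1 and for Tcf1, encoded by Tcf7 (genotype label Tcf1-/-Lef1-/-, called DKO). All donors, WT included, carried hCD2-Cre, a recombinase driven by human CD2 sequences that acts across lymphocytes, and a Rosa26 GFP reporter that Cre switches on. Splenic CD8 T cells of naive phenotype received CTV, a tracer dye diluted at each division, and were transferred to Rag1 KO hosts, which lack T and B cells of their own. CTV+ GFP+ TCRβ+ CD8+ cells were sorted from the host spleens 72 h later, during homeostatic proliferation, which cells undergo where lymphocytes are scarce. The labels give no age or sex. Whether libraries represent separate mice is not stated either, so the p-values reflect no more than the variation among these 9 libraries. Y-linked and Xist RNA, given further on, set the CTCF KO libraries apart from WT and DKO. In comparisons with CTCF KO, sex and genotype therefore cannot be told apart.

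Levels are in FPKM, which divides the fragments of a gene by its transcript length and by a measure of library size. How that size was set is not stated. Values are given as mean ± SD (n = 3 libraries per group). Read depth is unknown. Summed FPKM per library was 629664 to 702470, and 9613 to 9832 genes reached 1 FPKM. Log2 fold changes are differences in log2(FPKM + 1), which understates the change of low genes, and a gene was called at a limma adjusted p under 0.05 over 10172 tested genes. All 10 members passed the filter for testing, Tet1 only through the WT and CTCF KO libraries. Only Dnmt1, Uhrf1, Ezh2 and Eed had a mean of at least 5 FPKM. Of the targeted genes, Ctcf was not called lower in the libraries labelled CTCF KO (log2 fold change -0.33, adjusted p = 0.319). It was called higher in DKO than in WT (0.60, adjusted p = 0.0293) and than in CTCF KO (0.93, adjusted p = 0.00411). With the GC covariate described further on, these were -0.09 (adjusted p = 0.775) and 0.20 (0.523), and CTCF KO against WT was -0.29 (0.0876). The richest 100-base window of Ctcf held 86% GC. Lef1 fell in DKO (-1.92, adjusted p = 1.35e-08), whereas Tcf7 RNA rose (0.42, adjusted p = 0.000223), and where the deleted exons lie is not stated in the labels. The summed FPKM of 5 CD8 T cell markers was 4610 to 5420 and that of 2 CD4 T cell markers at most 0.985. The 8 neutrophil markers summed to 43.5 to 56.7 FPKM in WT, 15.1 to 18.8 in CTCF KO and 0.841 to 1.56 in DKO, with Elane at 0 in every library, and the 6 B cell markers to 58.2 to 62.1, 34.1 to 37.7 and 99.5 to 118, with Pax5 at 0. The part of other cells in the results was not tested. In bulk RNA, fewer cells of a type and less RNA per cell cannot be told apart.

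Relative to WT, 0 members were called higher and 1 lower in CTCF KO, beside 5.78% of all tested genes called higher and 6.37% lower. In DKO relative to WT, 1 member was called higher and 5 lower, beside 18.5% and 21.9% of all tested genes. Between DKO and CTCF KO, 2 members were called higher in DKO and 5 lower, beside 16.2% and 21.8% of tested genes. The share of members called in either direction was thus 1 of 10 against a background of 12.2%, 6 of 10 against 40.4%, and 7 of 10 against 38.0%. The median log2 fold change of the 10 members was -0.09, -0.22 and -0.34 in these comparisons, beside 0.01, 0.01 and -0.02 over all tested genes. By the q-values in the authors' deposited table, 2 members (Ezh2 and Eed) were lower in CTCF KO than in WT. The background was 9.48% of tested genes in either direction. By the same q-values, 5 were lower in DKO than in WT against 28.9%, and 5 were lower and 1 higher in DKO than in CTCF KO against 28.1%. These shares also count either direction. The 3 comparisons share libraries, so they are not separate observations. The background shares above also apply to the counts of the gene lists below.

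**Figure D1:**
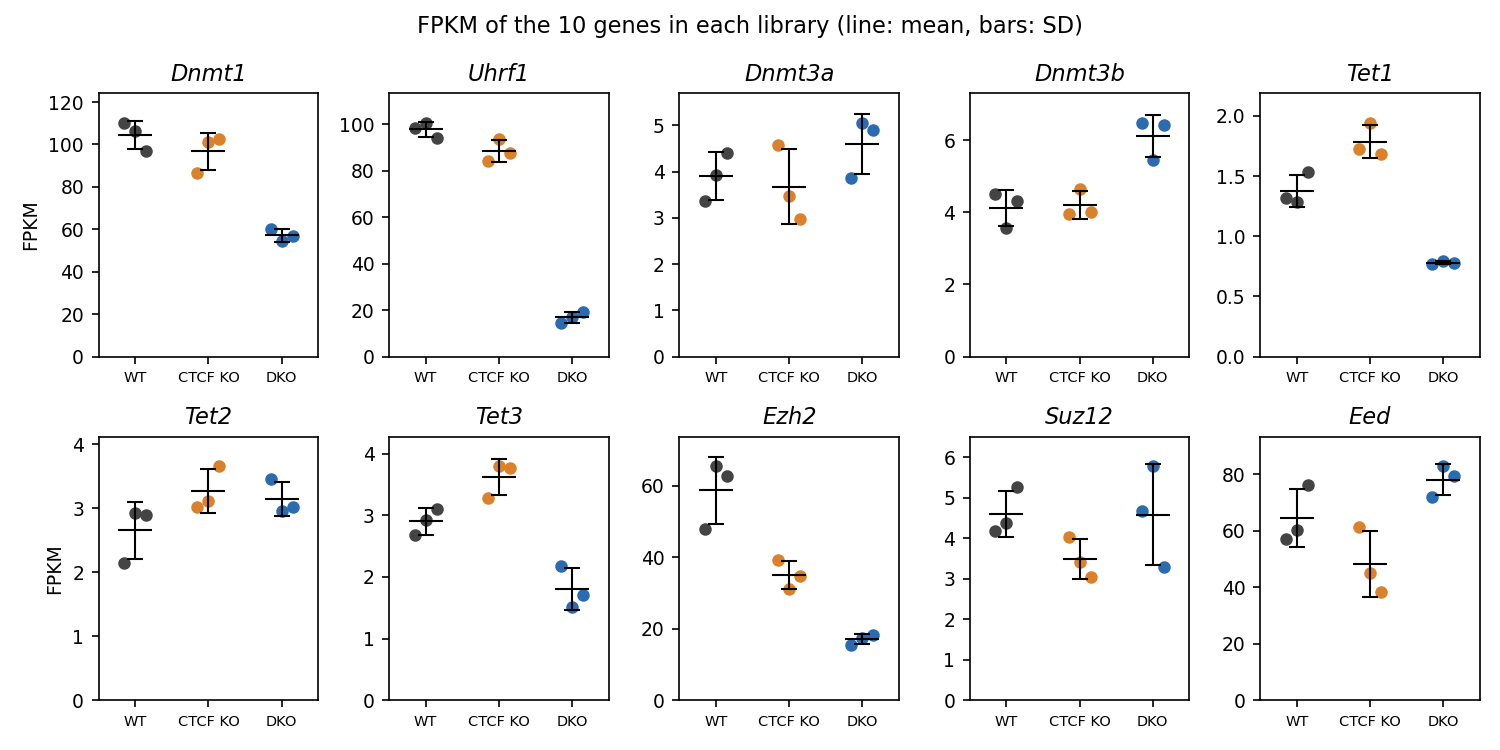
FPKM (vertical axis, starting at 0) of the 10 members in each of the 9 libraries, by group (horizontal axis); points are libraries, and black marks with bars are the group mean ± SD. Uhrf1 lies at 14.6 to 19.2 FPKM in the 3 DKO libraries and at 84.1 to 101 in the other 6, Ezh2 steps down from WT to CTCF KO to DKO, and Eed is highest on average in DKO.

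**Figure D2:**
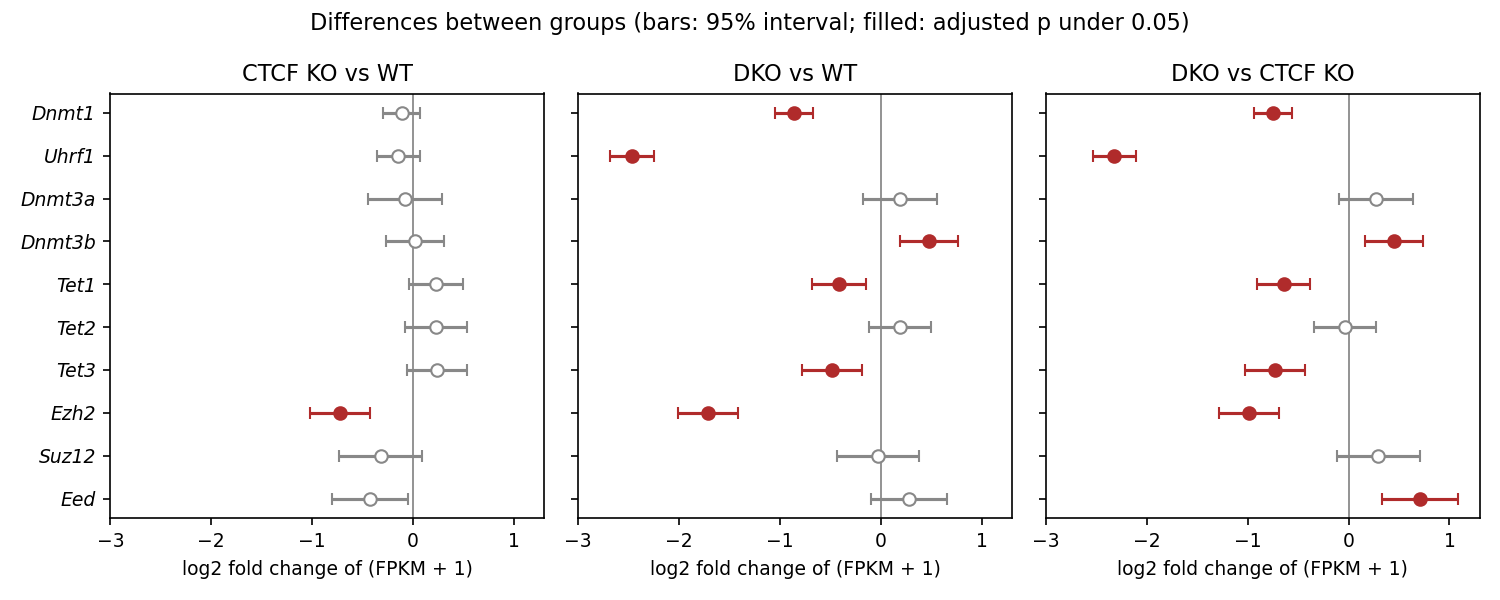
Log2 fold change on the log2(FPKM + 1) scale with its 95% interval from limma for each member in the 3 comparisons. The intervals of Dnmt1, Uhrf1 and Ezh2 lie below 0 in both DKO comparisons, and in CTCF KO against WT Ezh2 is the only member called.

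A stretch of promoter sequence is shown for the 3 genes with the largest falls in DKO, because cell-cycle genes often carry E2F-type motifs there. Another is shown for Eed, which was not called in DKO relative to WT. RefSeq (GRCm38.p6) gave 15 promoter windows for the 10 members, each from 250 bases before to 50 bases after an annotated start, and 4 follow, 5′ to 3′, with E2F-type matches in capitals.
Uhrf1, chr17:56304063-56304362, plus strand: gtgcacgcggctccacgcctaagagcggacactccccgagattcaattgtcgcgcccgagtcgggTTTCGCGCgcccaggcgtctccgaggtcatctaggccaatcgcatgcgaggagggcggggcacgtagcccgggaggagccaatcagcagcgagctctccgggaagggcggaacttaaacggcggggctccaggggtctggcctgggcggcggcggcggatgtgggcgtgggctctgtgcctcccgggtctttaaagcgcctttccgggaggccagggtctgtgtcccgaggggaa
Dnmt1, chr9:20952574-20952873, minus strand: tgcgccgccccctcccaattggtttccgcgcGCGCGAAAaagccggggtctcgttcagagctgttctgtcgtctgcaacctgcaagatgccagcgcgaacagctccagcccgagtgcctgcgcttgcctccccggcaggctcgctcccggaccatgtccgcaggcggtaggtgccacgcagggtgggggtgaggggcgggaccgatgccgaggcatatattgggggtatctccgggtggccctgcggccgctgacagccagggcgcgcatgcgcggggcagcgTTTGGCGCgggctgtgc
Ezh2, chr6:47594981-47595280, minus strand: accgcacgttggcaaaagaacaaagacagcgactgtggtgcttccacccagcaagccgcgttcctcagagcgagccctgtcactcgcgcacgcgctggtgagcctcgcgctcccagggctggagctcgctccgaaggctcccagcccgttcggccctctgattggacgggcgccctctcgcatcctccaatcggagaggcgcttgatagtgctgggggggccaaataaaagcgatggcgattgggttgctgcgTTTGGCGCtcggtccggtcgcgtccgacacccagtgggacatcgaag
Eed, chr7:89980927-89981226, minus strand: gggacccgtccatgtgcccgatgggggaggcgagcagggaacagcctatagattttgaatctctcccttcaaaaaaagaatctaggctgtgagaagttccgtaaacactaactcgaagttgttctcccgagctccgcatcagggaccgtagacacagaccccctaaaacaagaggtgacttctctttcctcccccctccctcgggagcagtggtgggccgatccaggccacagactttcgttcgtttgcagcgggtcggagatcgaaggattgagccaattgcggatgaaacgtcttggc
The letters searched were TTTCCCGC, TTTCGCGC, TTTGCCGC and TTTGGCGC on both strands. With the start as position 0, the Uhrf1 match began at position -185, the Ezh2 match at position 3, and those of Dnmt1 at positions -219 and 33. The fourth window with a match was that of Suz12 (position -219), which is not shown and whose RNA was not called in any comparison. For Uhrf1 and Dnmt1 the window with a match is the one shown, and their other windows held 0 matches. One of these other Dnmt1 windows, chr9:20952930-20953229 on the minus strand, lies upstream of the window shown. The Dnmt1 matches therefore lie downstream of another annotated Dnmt1 start. The contrast between the windows shown therefore depends on which were chosen. A match occurred in 4 of the 15 windows, in 2.3% of all 32851 RefSeq windows, and in 5.1% of the 3837 windows that, like those 4, held at least 30 CpG dinucleotides. The TCF/LEF letters CTTTGAT occurred in 0 of the 15 windows, beside 3.7% of all windows and 1.1% of those with at least 30 CpG. The CTCF core letters CCANNAGNNGGC also occurred in 0, beside 2.4% and 2.7%. The cell-cycle element TTTGAA occurred in 4 windows, Eed's included, beside 17.9% and 4.1%, and the CCAAT box (CCAAT) in 8, beside 37.4% and 25.9%. All were searched on both strands. The counts cover all 15 windows, and some of these held fewer than 30 CpG, Eed's having 17. The second percentage of each pair therefore refers to an unlike set of windows. These matches are descriptions of the letters, and binding was not measured in the data used here.

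Dnmt1, the maintenance methyltransferase (chromosome 9, 20711650 to 20764332), had 110.2, 106 and 97.1 FPKM in the WT libraries, 86.7, 101 and 102 in CTCF KO, and 60.1, 54.4 and 56.8 in DKO. The DKO libraries lay below the other 6, and WT and CTCF KO overlapped. Dnmt1 fell 1.83-fold in DKO relative to WT, from 104 ± 6.74 to 57.1 ± 2.88 FPKM (log2 fold change -0.86, 95% interval -1.04 to -0.67, adjusted p = 4.3e-05). It was also lower than in CTCF KO (-0.75, adjusted p = 0.000132). CTCF KO did not differ from WT beyond the spread (-0.11, interval -0.30 to 0.07, adjusted p = 0.459).

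Uhrf1 (chromosome 17, 56442760 to 56462909), whose product binds hemimethylated DNA and brings DNMT1 to it, had 98.3, 101 and 94.2 FPKM in WT, 84.1, 93.6 and 87.4 in CTCF KO, and 14.6, 16.99 and 19.2 in DKO. All 3 CTCF KO libraries lay just below all 3 WT libraries, yet the difference was not called (-0.14, interval -0.36 to 0.07, adjusted p = 0.398). In DKO it fell 5.76-fold from WT (-2.47, interval -2.68 to -2.25, adjusted p = 1.32e-07), and 120 of the 10172 tested genes, or 1.18%, had a lower log2 fold change. Relative to CTCF KO the fall was 5.21-fold (-2.32, adjusted p = 2.71e-07).

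Dnmt1 and its recruiter therefore did not fall by the same factor. The ratio of Dnmt1 to Uhrf1 FPKM was 1.12, 1.05 and 1.03 in WT, 1.03, 1.08 and 1.17 in CTCF KO, and 4.12, 3.20 and 2.95 in DKO. The DKO ratios lay above all others, at 3.42 ± 0.613 against 1.07 ± 0.0471 in WT. This and the other ratios were chosen after the values had been seen and carry no test.

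Among 10 tested partners of maintenance methylation (11 were listed), 1 was called higher and 3 lower in CTCF KO, and 0 higher and 4 lower in DKO relative to WT. The list's median log2 fold change was -0.24 and -0.05, and 12.2% and 40.4% of all tested genes were called in either direction. Hells, a chromatin remodeller needed for methylation of repeats, fell from 44.4 ± 5.98 FPKM in WT to 33.3 ± 1.08 in CTCF KO (-0.40, adjusted p = 0.0317) and 7.86 ± 0.312 in DKO (-2.35, adjusted p = 2.04e-07). Cdca7, which recruits the HELLS protein to nucleosomes, moved in opposite directions in the 2 groups. It was at 83.3 ± 5.82 FPKM in WT, rose to 105 ± 1.78 in CTCF KO (0.33, adjusted p = 0.0178) and fell to 22.4 ± 1.37 in DKO (-1.85, adjusted p = 1.34e-07). Lig1, the ligase of lagging-strand synthesis and a UHRF1 partner, had 110.0 ± 0.876, 85.6 ± 2.23 and 21.5 ± 2.98 FPKM and fell in both (-0.36, adjusted p = 0.035, and -2.31, adjusted p = 1.39e-07). Pcna, the replication clamp that tethers DNMT1 to the fork, also fell in both (-0.43, adjusted p = 0.00586, and -1.21, adjusted p = 2.57e-06). A further list held genes for methyl-CpG-binding-domain (MBD) proteins and other readers of methylated DNA. Of its 6 tested genes (8 listed), 0 were called in CTCF KO and only Mbd2 in DKO. Mbd2 fell there from 17.8 ± 1.49 to 12.6 ± 0.671 FPKM (-0.47, adjusted p = 0.00649). Highest in this list was Mbd3, a subunit of the NuRD complex, with 44.1 ± 32.3, 36.2 ± 19.3 and 79.5 ± 5.47 FPKM in WT, CTCF KO and DKO. Mbd1 came next, with 15.4 ± 2.56, 14.9 ± 2.198 and 19.1 ± 0.622. The sign of Mbd3 in DKO relative to WT turned with the GC covariate, from 1.09 (adjusted p = 0.105) to -0.999 (adjusted p = 0.00778), and the call of Mbd2 was then lost (-0.58, adjusted p = 0.0557).

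The de novo methyltransferases were low. Dnmt3a (chromosome 12, 3806980 to 3914443) had 3.38, 3.92 and 4.41 FPKM in WT, 4.57, 3.48 and 2.98 in CTCF KO, and 3.86, 5.06 and 4.90 in DKO. The 3 groups overlapped, and it was not called in CTCF KO (-0.08, interval -0.44 to 0.29, adjusted p = 0.84) or in DKO (0.19, interval -0.18 to 0.56, adjusted p = 0.372). Dnmt3b (chromosome 2, 153475185 to 153513466) had 4.50, 3.56 and 4.30 FPKM in WT, 3.95, 4.65 and 3.997 in CTCF KO, and 6.48, 5.45 and 6.43 in DKO. All 3 DKO libraries lay above the other 6. Dnmt3b rose 1.49-fold in DKO relative to WT (0.48, interval 0.19 to 0.76, adjusted p = 0.0157) and 1.46-fold relative to CTCF KO (0.45, adjusted p = 0.0209). The call against WT was lost without WT library 2 (adjusted p = 0.0621), DKO library 1 (0.054) or DKO library 3 (0.0532), and the q-values in the authors' deposited table were 0.0792 and 0.105. The call against CTCF KO was lost without CTCF KO library 1 (0.058) or 3 (0.0636), or DKO library 1 (0.0693) or 3 (0.0673).

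The 3 TET genes, which encode the dioxygenases, were the lowest members in WT, and they did not move together in DKO. Tet1 (chromosome 10, 62267318 to 62342762) had 1.32, 1.28 and 1.53 FPKM in WT, 1.73, 1.94 and 1.69 in CTCF KO, and 0.766, 0.794 and 0.780 in DKO. The 3 groups did not overlap, with CTCF KO highest and DKO lowest. All 3 DKO libraries lay below the 1 FPKM of the filter, so Tet1 was tested only because of its WT and CTCF KO values. Tet1 fell 1.77-fold in DKO relative to WT (-0.42, interval -0.68 to -0.15, adjusted p = 0.0197) and 2.29-fold relative to CTCF KO (-0.64, adjusted p = 0.00243), but its rise in mean from WT to CTCF KO was not called (0.23, adjusted p = 0.263). With a pseudocount of 0.1 in place of 1 the log2 fold changes in DKO were -0.74 and -1.10. The call against WT was lost without WT library 3 (adjusted p = 0.0608), DKO library 1 (0.054) or DKO library 3 (0.0515).

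Tet3 (chromosome 6, 83312368 to 83391672) showed the same order of groups, with 2.68, 2.92 and 3.10 FPKM in WT, 3.28, 3.79 and 3.77 in CTCF KO, and 2.18, 1.51 and 1.70 in DKO. It fell 1.61-fold in DKO relative to WT (-0.48, interval -0.78 to -0.19, adjusted p = 0.017) and 2.01-fold relative to CTCF KO (-0.73, adjusted p = 0.00239), and was not called in CTCF KO (0.24, adjusted p = 0.295). The call against WT was lost without DKO library 2 (adjusted p = 0.0551) or 3 (0.0522). Tet2 (chromosome 3, 133126641 to 133207354) had 2.14, 2.93 and 2.90 FPKM in WT, 3.02, 3.11 and 3.66 in CTCF KO, and 3.45, 2.96 and 3.03 in DKO. Both knockout groups lay above WT without overlap, but neither difference was called (0.23, adjusted p = 0.348, and 0.19, adjusted p = 0.295). Tet2 accounted for 38.2% ± 3.10 of the summed TET FPKM in WT, 37.7% ± 2.48 in CTCF KO and 55.1% ± 1.09 in DKO. The sum itself was 6.93 ± 0.720, 8.67 ± 0.567 and 5.72 ± 0.594 FPKM.

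Of 8 tested genes linked to the removal of oxidised methylcytosine by repair, 0 were called in CTCF KO, and 3 were called higher and 2 lower in DKO relative to WT, with a list median of 0.17. The background was 12.2% and 40.4% of all tested genes, either direction. Gadd45b, a stress gene of the Gadd45 family whose products have been linked to DNA demethylation, rose from 8.55 ± 0.741 to 18.7 ± 1.37 FPKM (1.04, adjusted p = 0.000112). Gadd45g of the same family rose from 22.1 ± 1.33 to 49.0 ± 7.33 FPKM (1.11, adjusted p = 0.00046). Smug1, a uracil-DNA glycosylase, rose from 2.33 ± 0.767 to 4.94 ± 1.41 FPKM (0.83, adjusted p = 0.0142). Parp1, which senses DNA breaks, fell from 74.4 ± 5.78 to 49.8 ± 2.21 FPKM (-0.57, adjusted p = 0.000635). In CTCF KO the 2 genes of the list with the highest levels, the endonuclease gene Apex1 (-0.02, adjusted p = 0.898) and Parp1 (-0.05, adjusted p = 0.767), were not called.

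**Figure D3:**
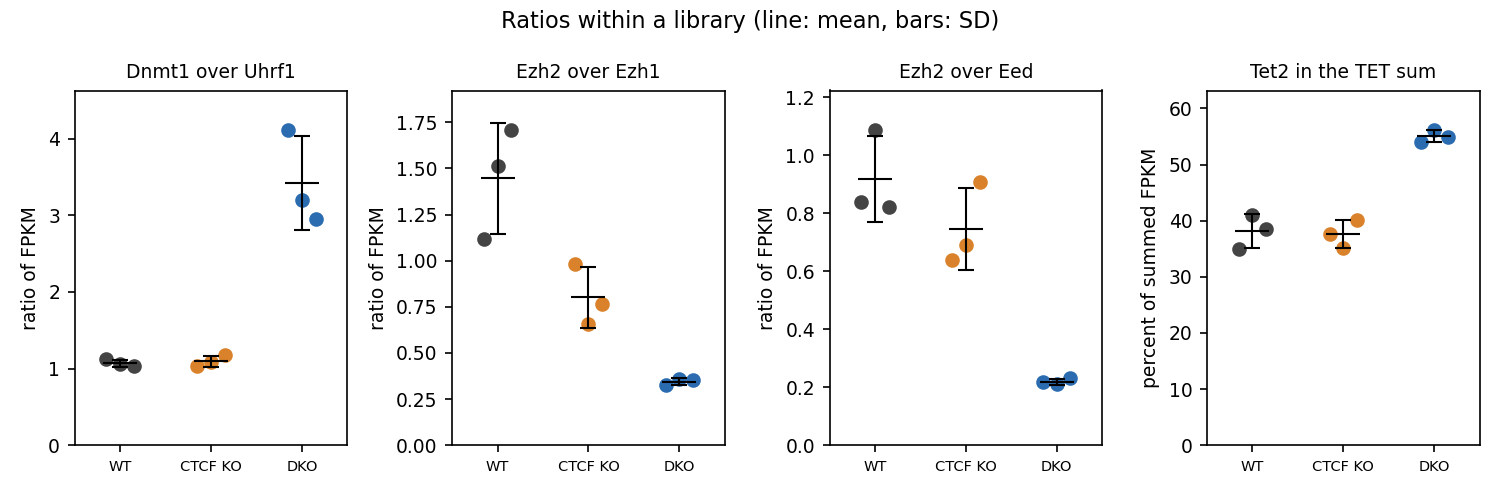
Ratios of FPKM within a library and the share of Tet2 in the summed TET FPKM (vertical axes, starting at 0) for the 9 libraries by group; points are libraries, and black marks with bars are the group mean ± SD. Dnmt1 over Uhrf1 and the Tet2 share are highest in the 3 DKO libraries, and Ezh2 over Eed and Ezh2 over Ezh1 are lowest there.

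Of the core PRC2 subunits, Ezh2 was called in all 3 comparisons, Eed in 1 and Suz12 in 0. Ezh2, which encodes the main methyltransferase (chromosome 6, 47480273 to 47545029), had 47.9, 65.5 and 62.8 FPKM in WT, 39.2, 31.2 and 34.7 in CTCF KO, and 15.6, 17.5 and 18.3 in DKO. The 3 groups did not overlap and stepped down from WT through CTCF KO to DKO. Ezh2 fell 1.68-fold in CTCF KO (-0.72, interval -1.02 to -0.42, adjusted p = 0.00721) and 3.43-fold in DKO (-1.71, interval -2.01 to -1.41, adjusted p = 1.02e-05), and it was 2.05-fold lower in DKO than in CTCF KO (-0.99, adjusted p = 0.000422). It was the 1 member called in CTCF KO, where 3.26% of tested genes had a lower log2 fold change.

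Eed (chromosome 7, 97103164 to 97129486), which binds the methylated lysine and stimulates the enzyme, had 57.0, 60.2 and 76.3 FPKM in WT, 61.3, 45.1 and 38.3 in CTCF KO, and 72.0, 82.8 and 79.2 in DKO. CTCF KO and DKO did not overlap, and WT overlapped both. Eed was 1.62-fold higher in DKO than in CTCF KO (0.71, interval 0.33 to 1.08, adjusted p = 0.00897), and was not called in DKO relative to WT (0.28, adjusted p = 0.202). With the GC covariate described further on, the difference between DKO and CTCF KO was 0.07 (adjusted p = 0.829). In CTCF KO relative to WT it was not called (-0.43, adjusted p = 0.14), but it was without CTCF KO library 1 (-0.61, adjusted p = 0.0261), and its q-value in the authors' deposited table was 0.0478. Of the exonic bases of Eed, 6.8% overlap an annotated transcript on the other strand, E230029C05Rik, the largest such share among the members. That transcript had at most 0.89 FPKM, and whether fragments were counted by strand is not stated, so reads of such a pair cannot be told apart.

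Suz12 (chromosome 11, 79806608 to 79847625), the scaffold of the complex, had 4.19, 4.37 and 5.26 FPKM in WT, 4.03, 3.41 and 3.04 in CTCF KO, and 4.69, 5.78 and 3.28 in DKO. All CTCF KO libraries lay below WT, and the DKO libraries spanned both groups. It was not called in CTCF KO (-0.32, interval -0.73 to 0.09, adjusted p = 0.314) or in DKO (-0.03, interval -0.43 to 0.38, adjusted p = 0.922).

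Relative to the other core subunits, Ezh2 was lowest in DKO. Ezh2 over Eed was 0.841, 1.09 and 0.823 in WT, 0.640, 0.692 and 0.908 in CTCF KO, and 0.216, 0.211 and 0.231 in DKO. Ezh2 over Suz12 was 11.4 to 14.99 in WT, 9.16 to 11.4 in CTCF KO and 3.02 to 5.58 in DKO. For both ratios, WT and CTCF KO overlapped and the DKO libraries lay below the other 6. Ezh1 encodes the alternative methyltransferase of PRC2, which predominates in cells that do not divide. Ezh2 over Ezh1 was 1.12, 1.51 and 1.71 in WT, 0.980, 0.656 and 0.766 in CTCF KO, and 0.324, 0.356 and 0.353 in DKO, so the order of these genes by FPKM was reversed in all 6 knockout libraries. Ezh1 itself was 41.0 ± 3.67, 44.3 ± 3.88 and 49.7 ± 1.98 FPKM and rose in DKO relative to WT (0.27, adjusted p = 0.0366).

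Of 9 accessory PRC2 genes, Ezh1 included, 1 was called higher and 1 lower in CTCF KO, and 2 higher and 3 lower in DKO relative to WT, with list medians of -0.18 and 0.12. Over all tested genes, 12.2% and 40.4% were called in either direction. Phf1, a Polycomb-like protein that binds H3K36 methylation, had 15.03 ± 1.29 FPKM in WT and rose to 21.6 ± 0.544 in CTCF KO (0.50, adjusted p = 0.0053) and 38.7 ± 2.11 in DKO (1.31, adjusted p = 3.18e-06). Its paralogue Phf19 had 4.54 ± 0.445, 2.52 ± 0.413 and 1.08 ± 0.659 FPKM and fell in DKO (-1.47, adjusted p = 0.00112). The histone-binding subunit Rbbp4 fell from 142 ± 5.34 to 110.5 ± 6.48 in CTCF KO (-0.36, adjusted p = 0.00928) and 89.3 ± 5.85 in DKO (-0.66, adjusted p = 7.26e-05). Rbbp7 fell in DKO, from 438 ± 40.0 to 275 ± 13.2 FPKM (-0.67, adjusted p = 9.48e-05).

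Polycomb repressive complex 1 (PRC1) compacts chromatin and ubiquitylates histone H2A. Of its 20 tested genes (22 listed), 2 were called higher and 0 lower in CTCF KO, and 5 higher and 3 lower in DKO relative to WT, with list medians of 0.02 and 0.12. These counts lay near the background of 12.2% and 40.4% of all tested genes called in either direction. Cbx7, a reader of the H3K27 mark, rose from 6.94 ± 3.14 FPKM in WT to 38.8 ± 3.86 in DKO (2.39, adjusted p = 9.28e-05), and stood at 8.15 ± 2.09 in CTCF KO. Cbx2, another reader, fell from 4.25 ± 0.581 to 2.58 ± 0.269 FPKM (-0.55, adjusted p = 0.0102), and L3mbtl2, a subunit of a variant PRC1, from 43.0 ± 4.95 to 31.1 ± 1.60 (-0.45, adjusted p = 0.00423). Scmh1, a sex-comb protein, rose in both, from 4.10 ± 0.180 to 8.25 ± 0.534 in CTCF KO (0.86, adjusted p = 0.00225) and 7.68 ± 1.14 in DKO (0.76, adjusted p = 0.00123). Phc3, a Polyhomeotic homologue, rose in CTCF KO from 2.32 ± 0.315 to 3.87 ± 0.399 FPKM (0.55, adjusted p = 0.0292) and was not called in DKO relative to WT (0.15, adjusted p = 0.392).

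Of 5 genes for H3K27 demethylases and the BAP1 complex, 1 was called lower in CTCF KO and 1 higher in DKO relative to WT. Kdm6a, an X-linked H3K27 demethylase, fell from 21.4 ± 1.58 FPKM in WT to 12.2 ± 0.769 in CTCF KO (-0.76, adjusted p = 0.00303), with 19.9 ± 2.78 in DKO. In the same libraries, 4 Y-linked genes summed to 90.0 to 101 FPKM in CTCF KO and did not exceed 2.03 elsewhere. Xist, which silences an X chromosome, did not exceed 0.00696 in CTCF KO and lay between 1.71 and 2.48 elsewhere. Uty, the Y-linked relative of Kdm6a, was at 9.45 to 10.1 FPKM in CTCF KO and at most 0.0622 elsewhere. Sex-linked RNA and the CTCF KO group cannot be told apart here. This holds for Ezh2 and every other gene in the comparisons of CTCF KO with WT and with DKO. Asxl2, a partner of BAP1, rose from 4.98 ± 0.194 to 6.44 ± 0.407 FPKM in DKO (0.31, adjusted p = 0.0428).

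Cell-cycle RNA moved with the same groups. Of 20 S phase genes, 7 were called lower in CTCF KO and 19 in DKO relative to WT, with list medians of -0.25 and -1.42, and of 18 mitosis genes all 18 were called lower in both, with medians of -1.26 and -3.58. Rrm2, a ribonucleotide reductase subunit, went from 302 ± 17.7 FPKM in WT to 124 ± 4.79 in CTCF KO and 22.4 ± 0.892 in DKO, and Birc5, a mitotic regulator, from 246 ± 1.10 to 93.6 ± 5.12 and 15.1 ± 2.26. The S phase genes summed to 2780 to 3194 FPKM in WT, 2362 to 2557 in CTCF KO and 1115 to 1119 in DKO. The part of cell division in the values of Dnmt1, Uhrf1 and Ezh2 was not tested.

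Set beside these 20 S phase genes, the 3 members kept different places. In DKO relative to WT, 19 of the 20 fell further than Dnmt1, 8 further than Ezh2 and 5 further than Uhrf1. In CTCF KO, 14 of the 20 had a lower log2 fold change than Dnmt1, 14 than Uhrf1 and 2 than Ezh2. Of the 18 mitosis genes, all 18 had a lower log2 fold change than each of Dnmt1, Uhrf1 and Ezh2 in CTCF KO, and in DKO relative to WT 18 fell further than Dnmt1, 18 further than Ezh2 and 17 further than Uhrf1. Uhrf1 over Pcna FPKM was 0.253 ± 0.0200 in WT, 0.309 ± 0.0276 in CTCF KO and 0.102 ± 0.0113 in DKO, whereas Dnmt1 over Pcna was 0.270 ± 0.0135, 0.338 ± 0.0332 and 0.344 ± 0.0225.

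**Figure D4:**
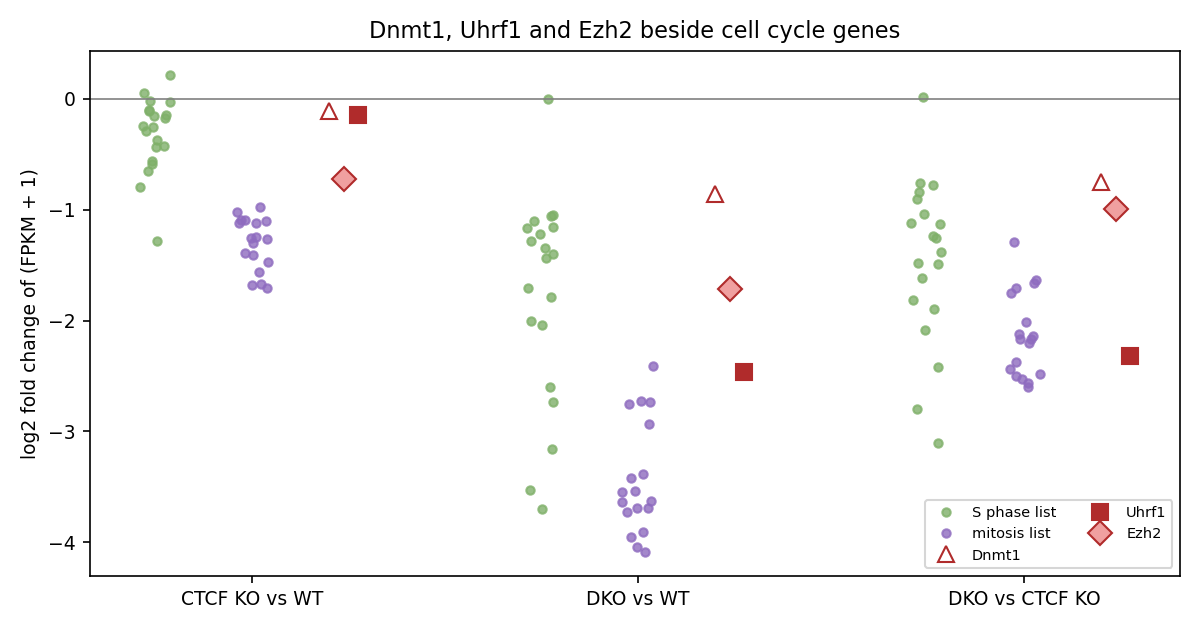
Log2 fold change (vertical axis, log2(FPKM + 1) scale) of each S phase and mitosis gene in the 3 comparisons, with Dnmt1, Uhrf1 and Ezh2 beside them. In DKO against WT, Uhrf1 at -2.47 and Ezh2 at -1.71 lie below the S phase median of -1.42, and Dnmt1 at -0.86 lies above it.

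The libraries also differed in how well GC-rich transcripts were represented. A GC index, the median log2 deviation of the 1180 tested genes with the richest 100-base window (at least 83% GC) minus that of the rest, was -0.49, -0.23 and 0.11 in WT, 0.01, -0.34 and -0.37 in CTCF KO, and 0.39, 0.52 and 0.36 in DKO. All 3 DKO libraries lay above the other 6. With the index as a covariate, Uhrf1 (-2.36, adjusted p = 8.24e-06), Ezh2 (-2.07, adjusted p = 3.58e-05) and Dnmt1 (-0.60, adjusted p = 0.00338) were still called lower in DKO than in WT. Dnmt3b (0.59, adjusted p = 0.114), Tet1 (-0.49, adjusted p = 0.191) and Tet3 (-0.46, adjusted p = 0.238) were not. Relative to CTCF KO, Dnmt1 was still called at a smaller size (-0.47, adjusted p = 0.0185), and so were Uhrf1 and Ezh2. In DKO relative to WT, Eed turned to -0.32 (adjusted p = 0.192) and Suz12 was at -0.46 (adjusted p = 0.286). Between DKO and CTCF KO the call of Eed was lost, as were those of Dnmt3b, Tet1 and Tet3, while in CTCF KO relative to WT Eed became called (-0.40, adjusted p = 0.0172).

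The richest windows were those of Suz12 (87% GC), Dnmt3a (86%), Eed (83%), Dnmt3b (81%), Ezh2 (80%) and Tet3 (80%), and those of Dnmt1, Tet2, Uhrf1 and Tet1 reached 75%, 70%, 68% and 63%. Within WT, and within CTCF KO, the 3 libraries ranked by Eed, by Suz12 and by Dnmt3a in the same order as by the index. In DKO this held for Suz12 and not for Eed or Dnmt3a. The WT and CTCF KO libraries did not rank by Ezh2 in the order of the index. Among the partner genes, Cbx7 (1.35, adjusted p = 0.000437), Phf1 (1.15, adjusted p = 0.000405), Gadd45b (1.08, adjusted p = 0.00581) and the falls of Hells, Cdca7, Pcna and Lig1 in DKO were kept with the covariate. Of the PRC1 genes called in DKO relative to WT, only Cbx7 was still called. The 2 PRC1 genes then called lower, Pcgf5 (-0.57, adjusted p = 0.0268) and Pcgf6, had not been called before, and Pcgf6 turned from 1.44 (adjusted p = 0.149) to -1.57 (adjusted p = 0.0403). The calls of Smug1, Parp1 and Asxl2 against WT were also lost. The index separates DKO from the other groups, so the covariate can also take up a difference of genotype, and these cannot be told apart.

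**Figure D5:**
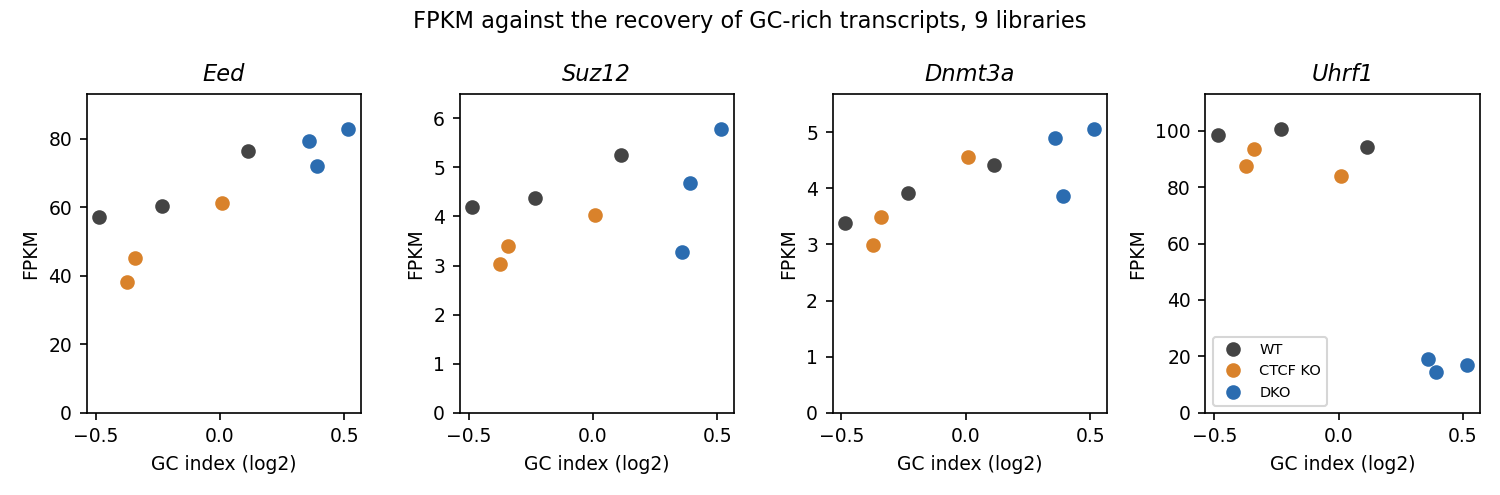
GC index (horizontal axis, log2) of each library against the FPKM of Eed, Suz12, Dnmt3a and Uhrf1 (vertical axes, starting at 0), coloured by group. The 3 DKO libraries have the highest indices, 0.36 to 0.52, and the first CTCF KO and the third WT library, at 0.01 and 0.11, have the highest Eed of their groups.

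The order of the members by level differed between the groups. FPKM is per length, but it does not correct for the recovery of GC-rich transcripts, which differed between libraries. In WT it ran Dnmt1 (104 FPKM), Uhrf1 (97.7), Eed (64.5), Ezh2 (58.7), Suz12 (4.61), Dnmt3b (4.12), Dnmt3a (3.90), Tet3 (2.90), Tet2 (2.66) and Tet1 (1.38). Of neighbours in this order, Dnmt1 and Uhrf1, Eed and Ezh2, Suz12, Dnmt3b and Dnmt3a, and Tet3 and Tet2 overlapped. In DKO, Eed (78.0) came first, then Dnmt1 (57.1), and Ezh2 (17.1) and Uhrf1 (16.95), which overlapped. With the GC covariate, the log2 fold change of Eed in DKO relative to WT turned from 0.28 to -0.32. The part of GC recovery in these orders was not tested. The number of members whose libraries did not overlap between the groups was 6 of 10 in CTCF KO relative to WT, 7 in DKO relative to WT and 7 between the knockouts, beside 30.4%, 54.1% and 52.4% of all tested genes.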

How the data were processed

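The authors deposited 1 table of FPKM per library, with group means and the p-values and q-values of their own pairwise comparisons, and the submitters' processing notes name FastQC, TopHat2 2.1.0, Cuffdiff 2.2.1 and the builds mm9 and mm10. Library scaling, annotation and strand handling are not given in the sources used here. Of 22339 genes matched by symbol and chromosome, 962 start within 1000 bases of their GRCm38 start, so the table's positions were taken as mm9; promoter windows are RefSeq's on GRCm38.p6, a different build. The DKO columns were tied to the group only, because their numbers differ between labels, and are called libraries 1 to 3 in column order.

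Genes reaching 1 FPKM in 3 or more of the 9 libraries were fitted as log2(FPKM + 1) with limma 3.58.1 in R 4.3.3 (1 mean per group over all 9 libraries, empirical Bayes with trend, two-sided, Benjamini-Hochberg over 10172 genes). The procedure was tested on simulated data. The GC index took each gene's richest 100-base window from GENCODE M21 transcripts, found for 92.6% of tested genes. Overlaps between strands also come from GENCODE M21. The members and gene lists were chosen with earlier results of these data known, and the ratios and promoter motifs after values were seen. From each list the text names up to 4 called genes with the smallest adjusted p per comparison, or the 2 highest where none was called, and the targeted genes; Ezh1 (as the alternative enzyme), Uty and the genes whose calls changed with the GC covariate were named outside this rule. Alternatives were another pseudocount, filter, scaling, a GC covariate, the replicate number as a block, each library left out, and the authors' q-values.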

Additional observations from a re-analysis of the deposited data

How the results depend on the processing

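Uhrf1, Dnmt1 and Ezh2 were called lower in DKO relative to WT and to CTCF KO under all 14 alternatives run for each, and Ezh2 was called lower in CTCF KO under 14 of 15. No alternative reversed a called member. In CTCF KO relative to WT, 588 genes were called higher and 648 lower, and 343 to 481 higher and 411 to 572 lower with 1 library left out; members called lower were 1 to 2 without 1 library, 2 with the GC covariate and 2 by the authors' q-values. In DKO relative to WT, the GC covariate left 813 genes called higher and 1108 lower, with 0 members higher and 3 lower, and the authors' q-values called 1379 genes lower and 0 members higher. Requiring a mean of 5 FPKM removed 6 members and left 0 higher and 3 lower, quantile normalization left 0 higher, and leaving out 1 library gave 0 to 1 higher and 3 to 5 lower. In DKO relative to CTCF KO, the GC covariate left 585 genes higher and 832 lower, with 0 members higher and 3 lower, and the authors' q-values called 1336 genes lower and 1 member higher. The mean filter left 1 member higher and 3 lower, quantile normalization 1 higher, and leaving out 1 library 1 to 2 higher. Why calls changed with the quantile normalization or the GC covariate was not tested. Whether the numbers of CTCF KO and WT pair the libraries is not known. Deviations of same-numbered libraries correlated at -0.62, 0.16 and -0.45, and those of CTCF KO 1 and WT 3 at 0.617. Such correlations cannot decide it, because other differences between libraries, such as the GC index, also enter them. With the replicate number as a block, 95 genes were called higher and 202 lower and 0 members, Ezh2 keeping a log2 fold change of -0.72 (adjusted p = 0.113). No paired analysis was possible for DKO because its columns carry no agreed number. With FPKM alone, the counting error behind the low members is unknown.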

Other observations

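The genes of the S-adenosylmethionine cycle, which supplies the methyl group to every methyltransferase described above, and of the folate pathway that feeds it, were measured in the same libraries. Of 10 tested, 1 was called higher and 0 lower in CTCF KO, and 0 higher and 5 lower in DKO relative to WT, with list medians of 0.05 and -0.18. The shares called in either direction among all tested genes were 12.2% and 40.4%. Mthfd2, a mitochondrial folate enzyme, fell from 71.5 ± 1.65 FPKM in WT to 34.5 ± 0.903 in DKO (log2 fold change -1.03, adjusted p = 6.8e-06), and Shmt1, a cytosolic serine hydroxymethyltransferase, from 43.6 ± 6.50 to 22.9 ± 0.933 (-0.89, adjusted p = 0.000174). Mthfd1 fell from 109 ± 9.24 to 70.0 ± 6.21 (-0.63, adjusted p = 0.00032), and Mtr, the methionine synthase, from 23.4 ± 1.20 to 18.04 ± 0.512 (-0.36, adjusted p = 0.00464). Shmt2, the mitochondrial counterpart of Shmt1, rose in CTCF KO, from 179 ± 9.78 to 254 ± 21.5 FPKM (0.50, adjusted p = 0.00284), and fell in DKO to 148 ± 7.87 (-0.28, adjusted p = 0.0169). With the GC covariate, Mthfd2, Shmt1 and Mthfd1 were still called lower in DKO relative to WT, and Mtr and Shmt2 were not.

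Likeness of pattern was measured as the root mean square difference of centred log2(FPKM + 1) over the 9 libraries, among 7541 other genes with a mean of at least 5 FPKM. All points come from the same libraries, so genes that separate the groups alike score as near. Nearest to Uhrf1 was Cd160, a receptor of cytotoxic lymphocytes (0.099), with 72.6, 58.2 and 12.0 FPKM on average in WT, CTCF KO and DKO, followed by the recombination gene Rad54l (0.155). Nearest to Ezh2 were Dut, which removes dUTP (0.173), with 58.0, 39.6 and 18.8 FPKM, and Incenp, a partner of Aurora B (0.173). Nearest to Dnmt1 were Hn1l (0.0671) and the glycolytic enzyme Pkm (0.0707), with 650.1, 637 and 382 FPKM for Pkm. Nearest to Eed was Ehmt2, an H3K9 methyltransferase (0.0999), with 15.1, 11.9 and 19.6 FPKM.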
